A study of Macaca mulatta with 5 samples.

Results

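Homeobox factors other than the anterior HOX genes were followed through a staged culture of rhesus macaque embryonic stem cells directed towards serotonin neurons. The set was taken from the array annotation by gene symbol. It comprises the HOX genes of paralog groups 6 to 13 and the LHX, DLX, NKX, IRX, MSX, EMX, OTX, PITX, MEIS, PBX, PAX and POU families and SIX2, SIX5 and SIX6, without PAX6 and POU5F1. It held 63 of the 14132 named genes, on 109 probe sets. Each gene was read from its brightest probe set, the one with the highest mean log2 signal over the 5 arrays. A total of 37 members had 1 probe set and 26 had several.

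All cells came from the embryonic stem cell line 366.4. Stem cells at passage 13, kept on a layer of mouse embryonic fibroblasts, formed the first stage (ESC). Embryoid bodies were collected after 6 to 8 days (EB), and spheres selected in DMEM/F12 with N2 supplement after a further 7 to 9 days (N1). FGF4 was then given for 7 to 9 days to expand the spheres (N2). It was withdrawn for the last stage, on a growth-factor-reduced matrix (N3). Each stage was represented by 1 Affymetrix array, so no difference below has a replicate check, a standard error or a p-value. Signals are given in arbitrary units, and a signal under 100 lay below the floor of the analysis. A ratio with 1 side below the floor is written as "at least". In these whole cultures, more cells of a type and more RNA per cell cannot be told apart.

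The arrays differed in the ratio of 3' to 5' control signal, by amounts that depended on the control. The 3' actin control exceeded the 5' one by a ratio of 1.73 in ESC and 15.2 in EB, then 5.43 in N1, 25.2 in N2 and 8.63 in N3. GAPDH gave the same kind of ratio at 1.94 in ESC and 2.78 in EB, then 1.69 in N1, 7.10 in N2 and 2.10 in N3. N2 was highest by both controls. Markers of several cell types were present. The summed signal of 7 stem cell markers was 5569 in N3, against 60650 in ESC. Among them POU5F1 had 14.7 in N3, against 28621 in ESC, whereas NANOG was 2.06-fold higher in N3 (2155 against 1047). LIN28B and SALL4 were lower in N3 but still above the floor, at 1400 and 579. The summed signal of 7 neuron markers was 59192 in N3, against 10911 in ESC. Of 10 listed serotonin neuron markers 7 had a probe set, and SLC6A4, DDC and the homeobox gene NKX2-2 were not among them. TPH1, TPH2 and LMX1B were below 100 on all 5 arrays, N2 and N3 included, although the labels call these stages serotonin neurons. FEV had 66.0 in N2 and 85.3 in N3. SLC18A2 had 150 and GATA2 107 in N3. GATA3, which also stands in the trophoblast list, had 3911 in EB and 895 in N3. The summed signal of 8 endoderm and liver markers was 2407 in ESC and 59895 in EB, then 46926 in N1, 13291 in N2 and 2633 in N3. Most of the endoderm and liver sum in EB came from FGB (26301) and APOA1 (20596). AFP was lower in EB (601) than in ESC (991), and the other markers of that list were higher. The summed signal of 12 skeletal muscle markers was 11893 in ESC and 12832 in EB, then 8886 in N1, 16057 in N2 and 56345 in N3. How much mouse feeder RNA added to the ESC signal was not measured.

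Homeobox genes encode transcription factors with a conserved DNA-binding homeodomain, and many of them mark position or cell type in the embryo. HOX genes lie in 4 clusters, A to D, and are activated in sequence, so that higher paralog numbers mark more posterior levels of the trunk, tail and limbs. MEIS and PBX proteins bind DNA together with HOX proteins. LHX, POU, PAX, DLX, IRX and NKX factors help to divide the neural tube into domains and to set the identity of neurons, and several also act in muscle, heart, kidney or limb.

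The number of members at or above the floor was 27 of 63 in ESC and 34 in EB, then 40 in N1, 42 in N2 and 44 in N3. Among all named genes the share at or above the floor was 73.1% in ESC and 67.6% in EB, then 71.1% in N1, 70.0% in N2 and 70.4% in N3. Of the members, 17 (27.0%) stayed at or above the floor on all 5 arrays, against 59.2% of all named genes. A further 13 (20.6%) stayed below it on all 5, near the 17.6% of all named genes. A total of 34 members reached 200 on some array and spanned 2-fold or more. Of these, 3 peaked in ESC and 6 in EB, then 2 in N1, 6 in N2 and 17 in N3. Of the 34 members 8.82% were thus highest in ESC, against 37.7% of the 6080 named genes that met the same limits. The share of those genes that was highest in N3 was 23.7%.

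The step from stem cells to embryoid bodies held the most members past 2-fold among the 4 steps between adjacent stages. The 7 measured HOX genes of groups 6 to 9, MEIS1, MEIS2, both MSX genes and PAX3 were higher in EB, by at least 4.85-fold (HOXD9) to at least 58.7-fold (HOXA9). Of 42 members measured, which excludes those with both arrays below the floor, 18 exceeded 2-fold in EB over ESC and 3 were lower by 2-fold or more. Over all named genes, 12.1% were higher and 11.8% lower. The median log2 ratio was 0.57 over the measured members and -0.06 over all measured genes. The split of 18 higher and 3 lower became 21 and 0 with arrays scaled to equal medians. With that scaling all named genes shifted too, to 2626 higher and 656 lower, in place of 1332 and 1290. Among the members, scaling to hybridisation controls gave 19 and 0, and scaling by quantiles gave 19 and 1. Their split was 22 and 9 with a floor of 50 or no floor, and 17 and 0 with a floor of 200. The median of probe sets gave 15 and 2. For actin, 3' over 5' signal stood at 15.2 in EB, against 1.73 in ESC, and its part in the ratios was not tested.

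**Figure D1:**
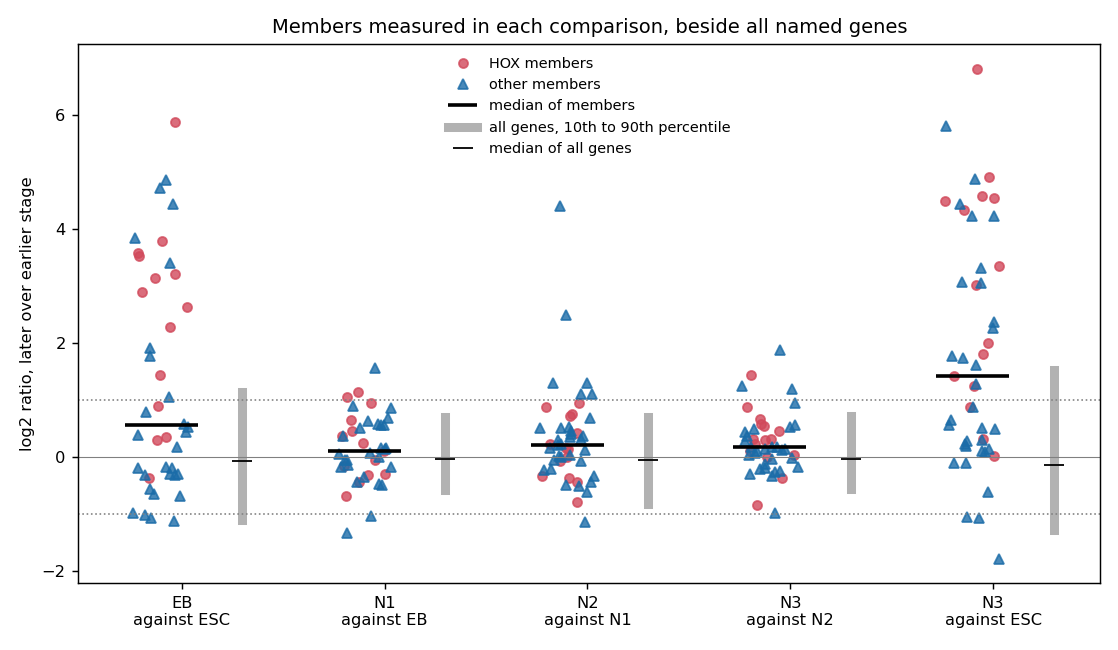
Log2 ratio of each measured member (y axis, later over earlier stage) in 5 comparisons (x axis), with HOX members as circles and other members as triangles. Black bars mark the members' medians, and grey bars the 10th to 90th percentile of all measured genes with their median. The members' median is 0.57 in EB against ESC, 0.12 in N1 against EB, 0.21 in N2 against N1, 0.18 in N3 against N2 and 1.42 in N3 against ESC. Dotted lines mark 2-fold.

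The HOX genes of groups 6 to 9 pattern the trunk. Of their 8 members 7 were measured in EB against ESC, and 7 passed 2-fold with higher signal in EB, where 12.1% of all genes did. Their median log2 ratio was 3.21. HOXA9, a group 9 gene, had a signal of 53.4 in ESC and 5869 in EB, then 5296 in N1, 8980 in N2 and 11316 in N3. It was thus below the floor in stem cells and high on the 4 later arrays, at least 58.7-fold higher in EB. HOXB8 had 19.8 in ESC and 1396 in EB, then 1139 in N1, 1252 in N2 and 2013 in N3, at least 14.0-fold higher in EB than in ESC. With the median of its 5 probe sets, of which 2 were below the floor on all arrays, the log2 ratio of HOXB8 was 0.95, under 2-fold. HOXB7 had 54.0 in ESC and 887 in EB, then 1218 in N1, 1639 in N2 and 2264 in N3, at least 8.87-fold higher in EB. HOXA7 was at 14.5 in ESC and 748 in EB, then 897 in N1, 854 in N2 and 2339 in N3, at least 7.48-fold higher in EB.

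The group 6 genes HOXB6 and HOXC6 were above the floor in ESC already on their brightest probe sets. The second probe set of HOXB6 read 39.7 in ESC, and those of HOXC6 read 8.21, 49.7 and 143. HOXB6 had 194 in ESC and 2254 in EB, then 2181 in N1, 1604 in N2 and 1981 in N3. It was 11.6-fold higher in EB. HOXC6 had 351 in ESC and 3249 in EB, then 2411 in N1, 2416 in N2 and 2850 in N3. It was 9.24-fold higher in EB. On the brightest probe sets both were thus highest in EB and varied by less than 2-fold over the later stages. The other 3 probe sets of HOXC6 and the second of HOXB6 were all highest in N3. HOXC6 had 1070 in N3, against 325 in EB on 1 of these, and HOXB6 had 220 in N3, against 38.9 in EB. HOXD9 was also highest in EB, with 72.0 in ESC and 485 in EB, then 303 in N1, 235 in N2 and 351 in N3. In EB against ESC, 1 probe set of HOXC6 had a log2 ratio of -0.46, the median of its probe sets gave 0.62, and the second of HOXB6 was below the floor on both arrays. HOXA6 stayed below the floor up to N2 and reached 184 in N3.

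**Figure D2:**
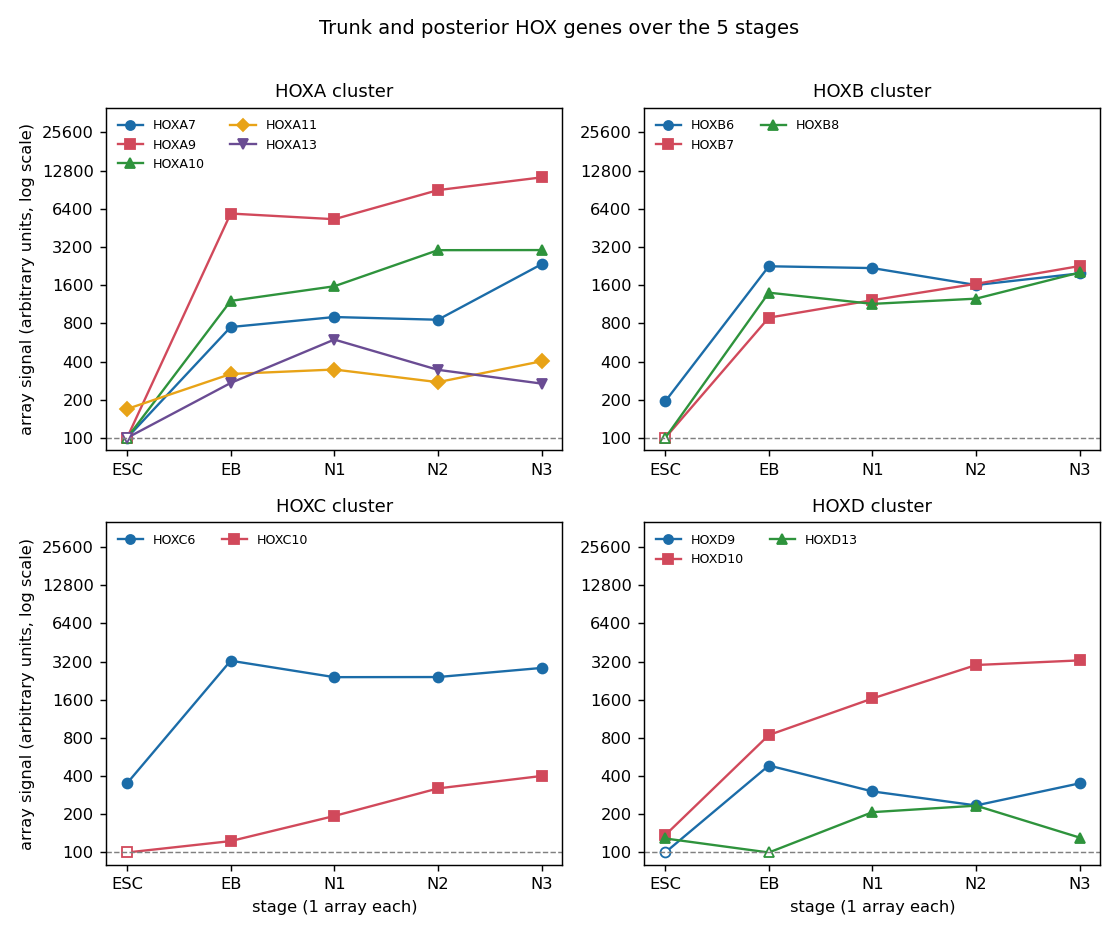
Signal (y axis, arbitrary units, log scale) of the HOX members that reached 200 and spanned 2-fold or more, at each stage (x axis, 1 array each), by cluster. Open symbols mark signals below the floor of 100, drawn at the dashed line. HOXA9 stands at 5869 in EB and 11316 in N3, and HOXD10 is higher at each later stage, with 3269 in N3.

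The posterior HOX genes of groups 10 to 13 were higher in EB in part. Of 9 members, 7 were measured in EB against ESC. HOXA10, HOXA13 and HOXD10, 3 of the 7, were at least 2-fold higher in EB, where 12.1% of all genes were. HOXA10 had 25.2 in ESC and 1202 in EB, then 1568 in N1, 3019 in N2 and 3025 in N3. HOXD10 had 137 in ESC and 843 in EB, then 1637 in N1, 3006 in N2 and 3269 in N3. HOXC10 had 56.9 in ESC and 123 in EB, then 194 in N1, 320 in N2 and 401 in N3. All 3 group 10 genes were therefore higher at the stages after EB. N3 exceeded EB by 2.52-fold for HOXA10, 3.88-fold for HOXD10 and 3.27-fold for HOXC10.

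Beyond group 10 no member exceeded 596. HOXA11 had 169 in ESC and 319 in EB, then 346 in N1, 275 in N2 and 402 in N3. It was 2.38-fold higher in N3 than in ESC. HOXA13, a gene of the limb tip and hindgut, had 14.3 in ESC and 271 in EB, then 596 in N1, 344 in N2 and 268 in N3. It peaked in N1, on a single probe set that can bind related transcripts. HOXD13 had 129 in ESC and 56.3 in EB, then 208 in N1, 234 in N2 and 131 in N3. HOXC13 lay between 102 and 131 on all arrays, and HOXC12 and HOXB13 stayed below the floor on all 5.

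Genes that feed into HOX activation were read from a list of 17, of which 14 had a probe set. CDX2, a caudal-type homeobox factor that activates trunk HOX genes, had 90.5 in ESC and 3138 in EB, then 1224 in N1, 565 in N2 and 191 in N3. Its relative CDX1 had 16.9 in ESC and 318 in EB, then 41.7 in N1, 19.7 in N2 and 82.6 in N3. ALDH1A2, an enzyme that makes retinoic acid, had 50.2 in ESC and 1180 in EB, then 3073 in N1, 2812 in N2 and 1335 in N3. In EB against ESC, 4 of 12 measured genes of the list were higher and 0 lower (12.1% and 11.8% over all genes), with a median log2 ratio of 0.90. In N3 against N2, 0 of 10 were higher and 4 lower, where 4.78% of all genes were higher and 2.19% lower. The list's median was -0.73, while the HOX genes of groups 6 to 9 had a median of 0.52 and HOXA7 was 2.74-fold higher. CDX2 is also a trophoblast and gut gene, and which cells it came from was not tested.

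Chromatin regulators of the HOX clusters were read from a further list. Of 18 listed polycomb and trithorax genes 10 had a probe set. In EB against ESC, 9 were measured, with 1 higher and 1 lower (11.1% each, against 12.1% and 11.8% of all genes). The polycomb gene PHC2 was 2.27-fold higher, with 3824 in EB against 1684 in ESC, and the polycomb gene CBX7 was 2.10-fold lower, with 158 in EB against 332 in ESC. EED, a subunit of the polycomb complex PRC2, was 2.36-fold higher in N1, with 2691 against 1141 in EB. KMT2A, the trithorax methyltransferase that maintains HOX expression, was 2.22-fold higher in N2, with 3568 against 1604 in N1, and 2.04-fold higher in N3, with 3269 against 1602 in ESC. It was the 1 of 10 measured genes past 2-fold in N3 against ESC, where 17.2% of all genes were higher and 16.4% lower.

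MEIS1 and MEIS2, HOX cofactors of the TALE class, were higher from EB on, as were the HOX genes of groups 6 to 9 except HOXA6. MEIS1 had 68.1 in ESC and 2897 in EB, then 4269 in N1, 6870 in N2 and 5627 in N3, at least 29.0-fold higher in EB than in ESC. MEIS2 had 265 in ESC and 6991 in EB, then 6810 in N1, 8019 in N2 and 7862 in N3, a 26.4-fold difference between EB and ESC. Both were low in stem cells and high on every later array. MEIS3 differed in timing, with 262 in ESC and 299 in EB, then 544 in N1, 550 in N2 and 1265 in N3. Its largest adjacent step was N3 against N2, at 2.30-fold higher.

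PBX3 was present from the start, with 2421 in ESC and 5059 in EB, then 4871 in N1, 6105 in N2 and 8303 in N3. It was 2.09-fold higher in EB than in ESC, and just under 2-fold (log2 ratio 0.94) after quantile normalisation. PBX2 ran the other way, with 343 in ESC and 171 in EB, then 153 in N1, 98.7 in N2 and 90.3 in N3. It was at least 3.43-fold lower in N3 than in ESC. The related TALE genes split as well. PKNOX2 was 5.93-fold higher in EB (1432 against 242 in ESC), whereas TGIF1, a repressor in TGF-beta signalling, was 3.08-fold lower (2395 against 7380 in ESC).

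**Figure D3:**
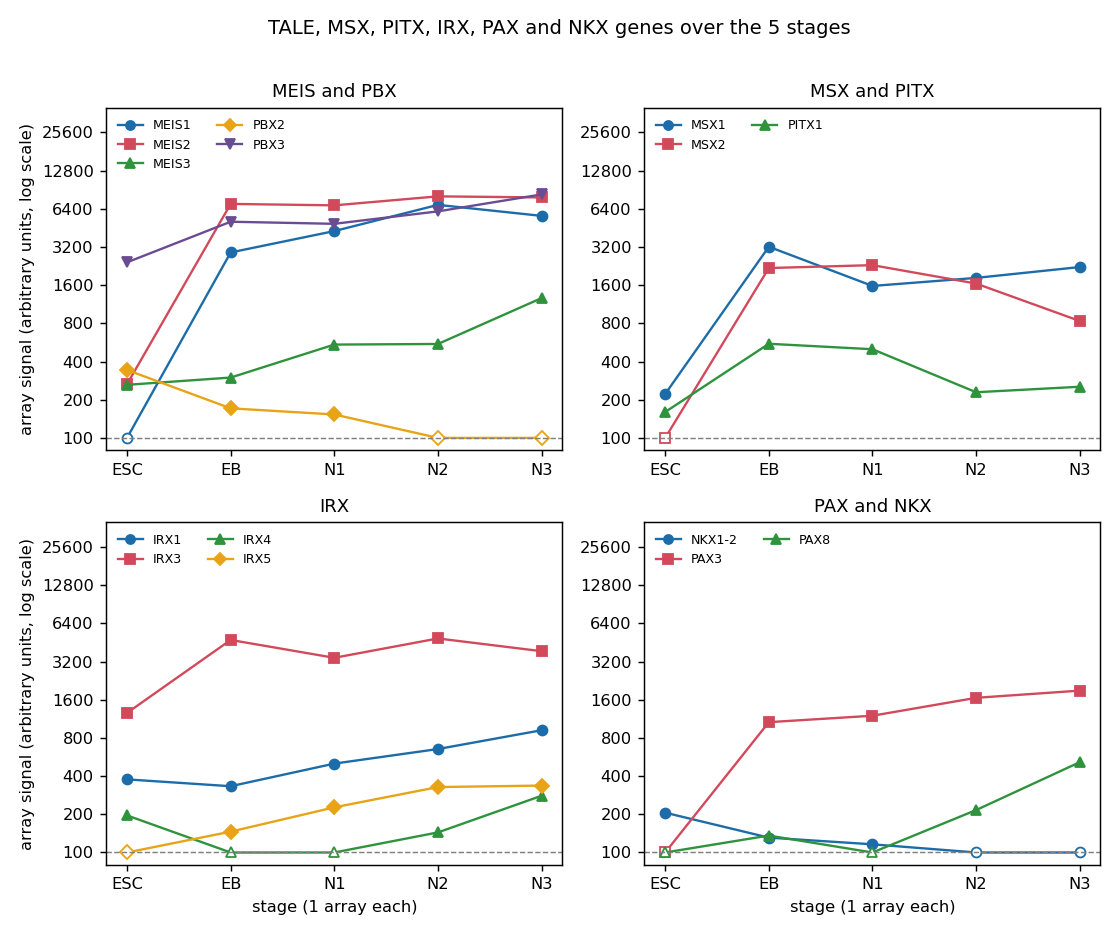
Signal (y axis, arbitrary units, log scale) of the MEIS, PBX, MSX, PITX, IRX, PAX and NKX members that reached 200 and spanned 2-fold or more, at each stage (x axis, 1 array each). Open symbols mark signals below the floor of 100, drawn at the dashed line. MEIS1 and MEIS2 stand at 2897 and 6991 in EB, whereas PBX2 drops below the floor in N2 and N3.

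MSX1 and MSX2, targets of BMP signalling in neural crest, heart, limb and amnion, were among the genes highest early on. MSX1 had 222 in ESC and 3212 in EB, then 1577 in N1, 1825 in N2 and 2222 in N3. It was 14.5-fold higher in EB than in ESC and 2.04-fold lower in N1 than in EB. MSX2 had 86.5 in ESC and 2183 in EB, then 2300 in N1, 1647 in N2 and 835 in N3. Its signal in N3 was thus 2.61-fold below that in EB. Its other 3 probe sets gave log2 ratios of 4.45, 1.82 and 1.37 in EB against ESC, and of 2.69, 0.22 and -0.45 in N3 against ESC. All 4 probe sets put MSX2 higher in EB, but they disagreed on whether N3 exceeded ESC.

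PITX1, a hindlimb and pituitary factor, had 160 in ESC and 552 in EB, then 500 in N1, 229 in N2 and 253 in N3. It was 3.44-fold higher in EB than in ESC and 2.19-fold lower in N2 than in N1, a step shared by its second measured probe set (9.91 in ESC and 930 in EB, then 676 in N1, 145 in N2 and 123 in N3). Over the same stages the summed signal of 10 heart markers was 1899 in ESC and 25948 in EB, then 16573 in N1, 6206 in N2 and 7526 in N3. Of 6 pituitary and hypothalamus markers with a probe set, POMC, GH1, PRL and POU1F1 were below the floor on all 5 arrays. TSHB was above it only in ESC, at 136, and HESX1 lay between 114 and 223. The summed signal of 9 limb and trunk mesenchyme markers was 9528 in ESC and 33907 in EB, then 40540 in N1, 48230 in N2 and 51038 in N3. That list includes the mesenchymal homeobox gene PRRX1, with 3267 in EB, against 24.2 in ESC. The list's EB sum came mostly from LUM (17532 in EB, against 46.0 in ESC) and DCN (7189 in EB, against 13.8 in ESC). COL1A2 was 3.51-fold and TBX15 2.57-fold lower in EB than in ESC, and TWIST1 and COL1A1 were within 2-fold. The part of heart and mesenchyme cells in the MSX, PITX and HOX signals was not tested.

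PAX3, a paired-box factor of the dorsal neural tube, neural crest and muscle precursors, had 53.3 in ESC and 1065 in EB, then 1197 in N1, 1657 in N2 and 1888 in N3. It was at least 10.7-fold higher in EB than in ESC. Its other 3 probe sets were also higher in EB, at log2 ratios of 0.25 to 1.50. Other neural crest markers were present: the summed signal of 4 of them, SOX10, FOXD3, TFAP2B and ERBB3, was 2338 in ESC and 1847 in EB, then 3108 in N1, 5063 in N2 and 4439 in N3. SOX10 had 548 in N3, against 98.2 in ESC, and TFAP2B had 1588 in N3, against 15.4 in ESC. FOXD3 ran the other way, with 538 in N3, against 1368 in ESC, and ERBB3 had 1765 in N3, against 856 in ESC. In EB, where PAX3 was higher, FOXD3 was 4.42-fold lower than in ESC. PAX7, a close relative of PAX3, stayed below the floor on all arrays, as did PAX1 and PAX2.

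The Iroquois genes, which act in neural, heart and limb patterning, differed in timing. IRX3 had 1260 in ESC and 4737 in EB, then 3426 in N1, 4867 in N2 and 3863 in N3, 3.76-fold higher in EB than in ESC. IRX1 and IRX5 were highest in N3. IRX1 had 377 in ESC and 333 in EB, then 502 in N1, 654 in N2 and 920 in N3. IRX5 had 43.3 in ESC and 146 in EB, then 227 in N1, 328 in N2 and 337 in N3. IRX4, a heart ventricle factor, had 196 in ESC and 57.3 in EB, then 10.6 in N1, 144 in N2 and 280 in N3. IRX6 lay between 36.5 in EB and 181 in N2.

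N1 against EB, the step of neural selection, held few differences among the members. Of 41 measured, 3 were at least 2-fold higher in N1 (DLX1, HOXA13 and HOXD13) and 2 lower (LHX6 and MSX1). Over all genes 5.15% were higher and 2.20% lower. The median log2 ratio was 0.12 over the members and -0.02 over all genes. The counts depended on the scaling: with hybridisation controls 12 were higher and 0 lower, with equal medians 2 and 3, and after quantile normalisation 1 and 1.

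LHX9 and POU4F2 had the largest ratios among the members in N2 against N1. Of 47 measured members, 6 were at least 2-fold higher in N2 (LHX9, POU4F2, DLX1, POU3F1, LHX6 and PAX8) and PITX1 was lower. Over all genes 5.06% were higher and 6.53% lower. Scaling to hybridisation controls gave 3 higher and 6 lower, and LHX9, POU4F2 and POU3F1 were still past 2-fold there. The median log2 ratio of all genes was -0.57 under that scaling, against -0.04 before. For actin, 3' over 5' signal stood at 25.2 in N2, against 5.43 in N1, and its part in these differences was not tested.

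LHX9, a LIM-homeodomain factor of dorsal spinal interneurons and of the developing gonad and limb, had 54.3 in ESC and 11.4 in EB, then 85.2 in N1, 2125 in N2 and 1886 in N3. It was below the floor on the first 3 arrays and high on the last 2, at least 21.2-fold higher in N2 than in N1. Of its other 3 probe sets, 1 reached 150 in N2 and 157 in N3 from below the floor, and 2 stayed below the floor on all arrays. LHX6, a factor of forebrain interneurons, had 186 in ESC and 280 in EB, then 112 in N1, 243 in N2 and 205 in N3. LHX4 had 210 in ESC and lay between 74.2 and 99.4 on the later arrays. LHX1 and LHX5 stayed below the floor on all 5, and LHX8 reached 101 in N2.

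POU4F2, a POU factor of retinal ganglion cells and sensory neurons also called BRN3B, had 124 in ESC and 29.8 in EB, then 130 in N1, 729 in N2 and 2687 in N3. It was 5.63-fold higher in N2 than in N1, a further 3.69-fold higher in N3 than in N2, and 21.7-fold higher in N3 than in ESC. Its signal was thus higher at both of the last steps, on its single probe set. POU3F1, a factor of neural progenitors and Schwann cells, had 216 in ESC and 23.8 in EB, then 63.5 in N1, 249 in N2 and 263 in N3, so it was low in EB and N1. POU2F1, which is broadly expressed, lay between 959 and 1674. POU4F3 and POU3F4 stayed below the floor on all arrays.

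**Figure D4:**
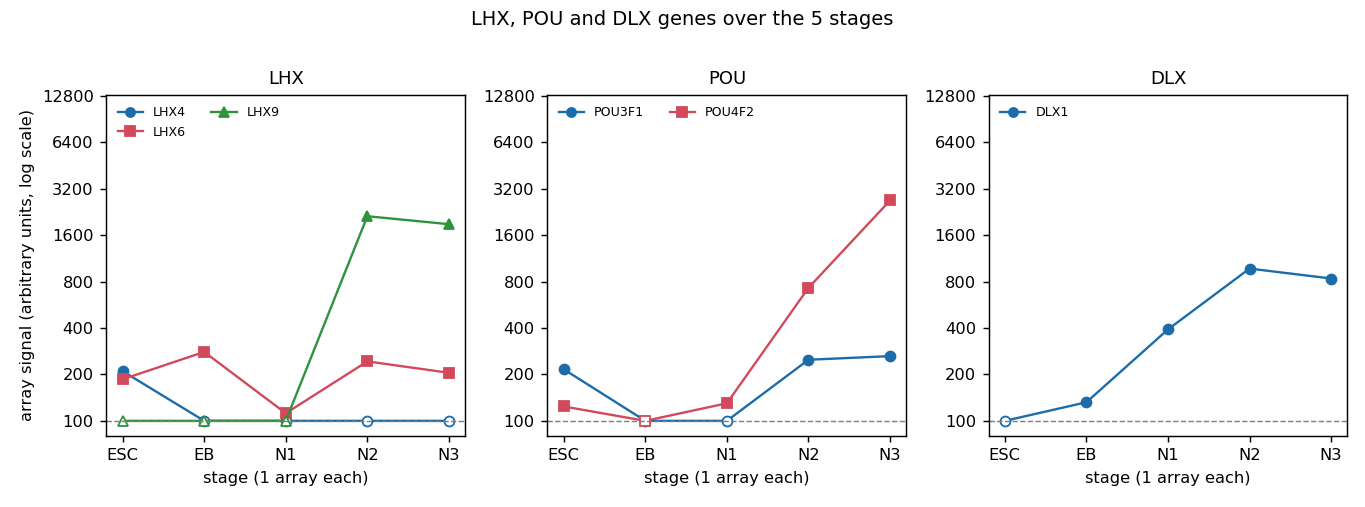
Signal (y axis, arbitrary units, log scale) of the LHX, POU and DLX members that reached 200 and spanned 2-fold or more, at each stage (x axis, 1 array each). Open symbols mark signals below the floor of 100, drawn at the dashed line. LHX9 reads 2125 in N2 and 1886 in N3 after 3 arrays below the floor, and POU4F2 reaches 2687 in N3.

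DLX1, a factor of forebrain GABA interneurons, had 28.6 in ESC and 132 in EB, then 392 in N1, 972 in N2 and 838 in N3. It was 2.96-fold higher in N1 than in EB and 2.48-fold higher in N2 than in N1. Its second probe set had 8.46 in ESC and 49.8 in EB, then 81.9 in N1, 101 in N2 and 207 in N3. Both probe sets were thus lowest in ESC, but the second one had a log2 ratio of 0.02 in N2 against N1. The other 3 DLX members did not reach 200: DLX4 was highest in EB at 174, DLX5 in N1 at 142, and DLX3 stayed below the floor.

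Markers of neurons and of neural progenitors differed in timing. The summed signal of the 7 neuron markers was 10911 in ESC and 4699 in EB, then 21778 in N1, 33538 in N2 and 59192 in N3. Of these 7 markers 6 were highest in N3, and SYT1 was highest in ESC (2985 in N3, against 4177 in ESC). The summed signal of 5 neural progenitor markers was highest in ESC, at 38495, and had 8929 in EB, then 8345 in N1, 25973 in N2 and 30804 in N3. Of these, SOX2, SOX3 and ZIC2 were highest in ESC, while PAX6, which is not a member, and HES5 were highest in N3, with 3322 and 2586. The summed signal of the 12 skeletal muscle markers was 8886 in N1, 16057 in N2 and 56345 in N3. MYH3, an embryonic myosin, had 103 in N1, 2905 in N2 and 14054 in N3. MYL4 and TNNI1 were 5.65-fold and 2.92-fold lower in N2 than in N1, and higher again in N3 (1164 and 2239). CKM was below the floor in N3, and MYF5 and MYF6 on all arrays. How much each cell type added to the members' signals was not tested.

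Partners of these families were read from 2 lists. Among LIM cofactors, 6 of 9 had a probe set. LMO3, a LIM-only protein, had 214 in ESC and 517 in EB, then 637 in N1, 2054 in N2 and 2520 in N3. It was the 1 of 6 past 2-fold in N2 against N1, where 5.06% of all genes were higher and 6.53% lower. In N3 against ESC, 3 of 6 (LMO2, LMO3 and RLIM) were at least 2-fold higher and 1 lower, where 17.2% of all genes were higher and 16.4% lower. The lower one was LDB1, the adaptor that binds LHX proteins, 2.11-fold lower in N3 (400 against 845 in ESC). Unlike LMO3, LMO2 was highest in EB, with 149 in ESC, 1376 in EB and 390 in N3. Of 6 listed EYA and DACH partners of SIX2 and its relatives 3 had a probe set. In N3 against ESC 2 of these were at least 2-fold higher, where 17.2% of all genes were. DACH1 was 36.3-fold higher (4673 in N3 against 129 in ESC) and EYA4 at least 7.47-fold higher (747 in N3 against 36.3 in ESC). EYA3 lay between 1402 and 1989. Members of that family differed by less than 2-fold once values below the floor were set to it: SIX5 lay between 671 and 1042, SIX2 between 50.2 and 198, and SIX6 stayed below the floor.

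N3 against N2, the step of maturation without FGF4, held 4 members at least 2-fold higher in N3 and 0 lower, of 45 measured. Over all genes 4.78% were higher and 2.19% lower. The 4 were POU4F2, HOXA7, PAX8 and MEIS3. Scaling by quantiles or to equal medians gave 4 higher and 1 lower. PAX8, a factor of kidney, thyroid and spinal inhibitory neurons, had 70.6 in ESC and 136 in EB, then 89.4 in N1, 216 in N2 and 515 in N3. It was 2.39-fold higher in N3 than in N2, while its other 3 probe sets measured in that step had log2 ratios of 0.09 to 0.22, and the median of its probe sets gave 0.16. The kidney marker WT1 had 406 in N3, against 709 in N2, and GDNF was below the floor on all arrays.

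Among NKX members, which include ventral neural tube factors, NKX6-1 was below the floor up to N2 and reached 147 in N3. NKX2-1 stayed below the floor on all arrays and NKX2-8 did not exceed 118. NKX3-2 lay between 347 and 513. NKX1-2, a gene of the posterior growth zone, had 206 in ESC and 131 in EB, then 116 in N1, 55.5 in N2 and 17.7 in N3. Among EMX and OTX members, EMX2 had 185 in N3, against 21.5 in ESC, EMX1 lay between 105 and 160, and OTX1 stayed below the floor on all arrays. PAX4 and POU6F1 did not exceed 124.

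Over the whole course, N3 against ESC, 26 of 47 measured members were at least 2-fold higher in N3 and 3 lower. Over all genes 17.2% were higher and 16.4% lower. The median log2 ratio was 1.42 over the members and -0.13 over all genes. HOXA9 was at least 113-fold higher, MEIS1 at least 56.3-fold, HOXA10 at least 30.2-fold, MEIS2 29.7-fold and HOXD10 23.9-fold. The 3 lower members were PBX2, LHX4 and NKX1-2, with LHX4 at least 2.10-fold and NKX1-2 at least 2.06-fold lower. Without ESC, in N3 against EB, 14 of 47 were higher and 2 lower, where 13.0% of all genes were higher and 11.2% lower. Without N2, in N3 against N1, 10 of 48 were higher and 2 lower, where 8.42% of all genes were higher and 6.67% lower.

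Other probe sets of the same genes gave the one internal check. Among 12 members past 2-fold in N3 against ESC that had another measured probe set, these numbered 22, of which 20 had the same direction and 14 also passed 2-fold. The exceptions in direction were 1 probe set of MSX2 and 1 of PAX8. For 11 of the 12 members the brightest probe set had the largest ratio, so the sizes above are at the upper end of what these probe sets gave. For HOXD10 the ratios were 4.58, 2.53 and 1.65 on the log2 scale, for HOXA10 they were 4.92 and 2.88, and for MEIS1 5.81 and 3.56. In HOXB8 a second probe set was high in EB (1895) and N2 (1581) but read 285 in N1 and 663 in N3, unlike the brightest one. Between probe sets of the same gene, the SD of the log2 ratio was 0.818 in N3 against ESC (4605 genes) and 0.433 in N3 against N2 (4109 genes).

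**Figure D5:**
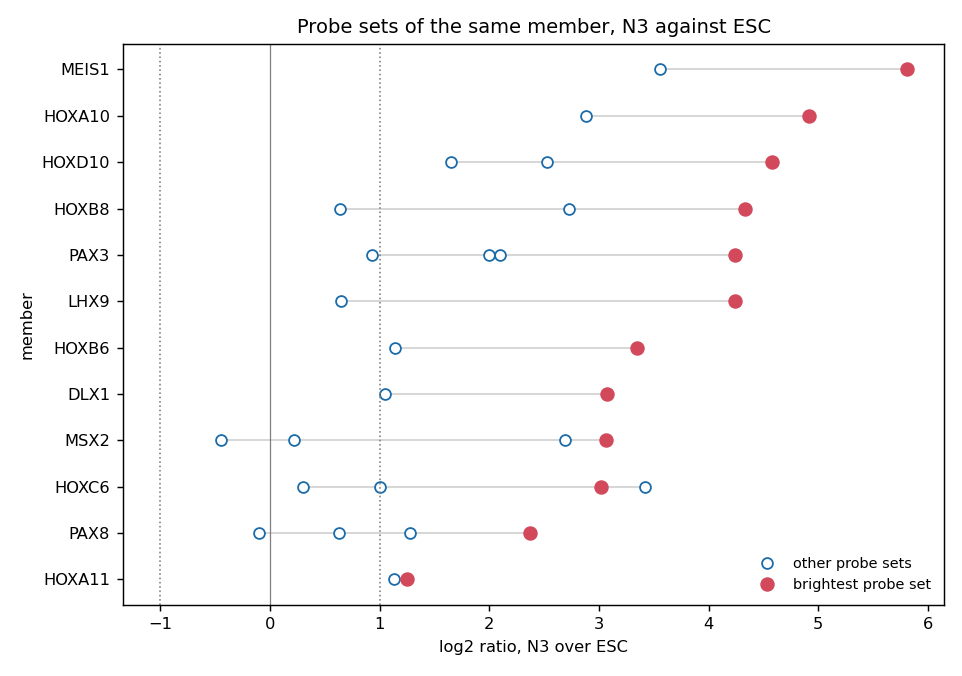
Log2 ratio of N3 over ESC (x axis) for the 12 members past 2-fold that have a second measured probe set (y axis, 1 member per row). Filled circles are the brightest probe sets and open circles the others, and dotted lines mark 2-fold. HOXA11 agrees closely between its probe sets (1.25 and 1.13), whereas MSX2 spreads from -0.45 to 3.06.

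Other homeobox genes of the nervous system and mesenchyme outside the member families were listed for comparison, and 35 of 47 had a probe set. In N3 against ESC, 7 of 23 measured were at least 2-fold higher and 1, VAX2, lower, where 17.2% of all genes were higher and 16.4% lower. The list's median log2 ratio was 0.35. Of the 7 higher genes, PROX1 and MEOX1 were highest in N1, at 394 and 371, and the other 5 (ISL2, TLX3, ZEB2, PRRX1 and SHOX2) in N2 or N3. TLX3, a factor of spinal glutamate neurons, had 85.8 in ESC and 35.6 in EB, then 246 in N1, 412 in N2 and 438 in N3. ISL2, a motor and sensory neuron factor, had 130 in ESC and 106 in EB, then 233 in N1, 544 in N2 and 445 in N3. SHOX2, a limb, heart and sensory neuron factor, had 22.9 in ESC and 193 in EB, then 966 in N1, 1397 in N2 and 761 in N3. LHX9 and POU4F2 were likewise highest in N2 or N3.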

How the data were processed

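Biotin-labelled RNA from 5 stages of rhesus macaque line 366.4 was hybridised to 1 Affymetrix array each, per the labels. The authors deposited linear array intensities, 1 per probe set, made with GCOS 1.0 per the submitters' processing notes. Nothing on the algorithm was found; it is not given in the sources used here. Of 52865 probe sets, 158 were controls, 24956 others had 1 gene symbol in the platform annotation, which can be old, 361 had several and 27535 were unnamed. Entrez identifiers of 61 of the 63 members were found in a RefSeq table, with no symbol differing.

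Signals were brought to a common trimmed mean of 500 per array (2% off each end), a floor of 100 was set and log2 was taken, in Python 3.11.15 with pandas 2.3.3. A gene was measured in a comparison unless both arrays were below the floor, and counted at 2-fold. The calculation was tested on simulated data. No test was possible with 1 array per stage, and the number of arrays limits the precision. Members that reached 200 and spanned 2-fold are given in full. The members, 6 lists of related genes and 13 marker lists were chosen with earlier results of these data known. N3 against EB and N3 against N1 were added after the values were seen. The alternatives were 3 scalings, 3 floors and 3 choices of probe set.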

Additional observations from a re-analysis of the deposited data

How the results depend on the processing

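Of 66 pairs of a member and a comparison past 2-fold, 40 kept their direction and passed 2-fold in all 9 alternatives where they were measured, and 0 of 588 values changed sign. All 7 measured HOX genes of groups 6 to 9 kept their direction in EB against ESC, but HOXB8 (log2 ratio 0.95) and HOXC6 (0.62) fell under 2-fold with the median of probe sets. So did HOXB8 (0.64), LHX9 (0.32) and PAX8 (0.47) in N3 against ESC. In N2 against N1 the median of the LHX9 probe sets was below the floor on both arrays. That alternative therefore gave no ratio for LHX9 and did not check its difference between N2 and N1.

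Counts of members past 2-fold moved by over 1.5 times as follows. In EB against ESC, the 3 lower became 1 after quantile normalisation, 0 with equal medians, hybridisation controls or a floor of 200, and 9 with a floor of 50 or no floor. In N1 against EB, the 3 higher became 12 with hybridisation controls, 8 with a floor of 50 or no floor, and 1 after quantile normalisation, with a floor of 200 or with the median of probe sets. The 2 lower became 0 with hybridisation controls, and 1 after quantile normalisation, with a floor of 200 or with the median of probe sets. In N2 against N1, the 6 higher became 3 with hybridisation controls or a floor of 200 and 2 with the median of probe sets, and the 1 lower became 6 with hybridisation controls and 2 with a floor of 50 or no floor. In N3 against N2, the 0 lower became 1 after quantile normalisation, with equal medians, with a floor of 50 or with no floor. In N3 against ESC, the 3 lower became 1 with equal medians or hybridisation controls and 0 with a floor of 200. The arrays left out after seeing the data gave 14 higher without ESC, in place of 26, and 10 higher and 2 lower without N2, in place of 4 and 0.

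Hybridisation controls placed the median log2 ratio of all genes at 0.41 in N1 against EB, -0.57 in N2 against N1 and 0.17 in N3 against N2. Equal medians placed it at 0.41 in EB against ESC, -0.37 in N1 against EB and -0.13 in N3 against N2. All named genes then split into 2626 higher and 656 lower in EB against ESC with equal medians, in place of 1332 and 1290. With hybridisation controls they split into 1492 and 75 in N1 against EB, in place of 532 and 227, and into 187 and 2543 in N2 against N1, in place of 534 and 689. The median of probe sets gave 888 higher genes in EB against ESC in place of 1332. Ratios of LHX4, NKX1-2 and HOXD13 rest on signals near the floor. No paired analysis was possible because each stage had 1 array.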
